A study of Mus musculus with 15 samples.

Results

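The protocadherin genes are described here in RNA-seq profiles of 15 mouse mammary tumours from 4 tumour models. A gene was counted as a protocadherin where its symbol in the deposited table starts with Pcdh, which gave 49 of 17271 genes. Of these, 39 lie in the clustered arrays of chromosome 18, with 17 Pcdhb genes and 22 Pcdhg genes, and 10 are non-clustered (Pcdh1, Pcdh7, Pcdh8, Pcdh9, Pcdh10, Pcdh12, Pcdh15, Pcdh17, Pcdh18 and Pcdh19). No Pcdha gene was among the rows analysed here. All tumours are labelled Balbc in strain and p53-NULL in genotype, so every group carries the loss of p53 and none is a wild-type control. Model 2151R had 4 samples, T11 had 1, 2225L had 2 and 2208L had 8. The titles split 2208L into 4 samples marked PBS, 3 marked 3day_nt (day 3) and 1 marked ROSEN. In 2151R the titles mark replicate 4 as NT and replicate 3 as NT2, and give replicates 1 and 2 marks of their own. What these marks and nt stand for is not given in the sources used here, nor is the age of the animals. One sample of 2225L has the library prefix CP and the title T-Vivo, and the other the prefix ROSEN. No label says that samples of a group came from separate animals, so p-values measure only the spread between these samples.

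Protocadherins are the largest subfamily of the cadherins, calcium-dependent adhesion proteins of the cell surface. The clustered genes lie in tandem arrays, where CTCF and cohesin help to choose which promoters a cell uses, and their products give neurons a surface code for recognising cells of the same kind. Each Pcdhb gene is a single coding exon, whereas each Pcdhg gene joins its own first exon to constant exons that the whole array shares. The non-clustered protocadherins lie outside these arrays, have separate promoters and take part in cell sorting, migration and adhesion. Pcdh1 and Pcdh12 are on chromosome 18 as well, past the end of the Pcdhg array. The human forms of Pcdh8, Pcdh10 and Pcdh17 are known for promoter methylation in carcinomas.

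The values are log2 values that the authors centred for each gene on a median. They show how a gene differed between samples, and levels of different genes cannot be ranked. For the same reason they cannot show whether Trp53, the gene of p53, was silent in these tumours. Sequencing depth is unknown because no counts were used, and precision rests on the spread between samples. In GENCODE the Pcdhg genes shared a median of 44.8% of their exonic bases with other Pcdhg genes (range 13.41% to 45.46%), and how reads from the constant exons were assigned is not stated, so the value of a single Pcdhg gene is uncertain. Of the 17 Pcdhb genes, 15 shared no exonic base, while Pcdhb21 and Pcdhb22 overlapped by 455 bases. At Pcdh8 8 samples held exactly 0.00, and at Pcdh9 4 did (2151R replicates 2 and 4, T11 and 2225L replicate 1), and such a repeated value is not read as a measured level. In tumour tissue, fewer cells of a type and less RNA per cell cannot be told apart. Each of the groups 2151R, PBS and 3day_nt has its own run of library numbers, so group and library range cannot be told apart. Of 8 skeletal muscle markers, summed values were 85.21 and 80.60 in 3day_nt replicates 1 and 3 and 61.98 in 2151R replicate 3, and -30.13 to 26.82 in the other samples.

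**Figure D1:**
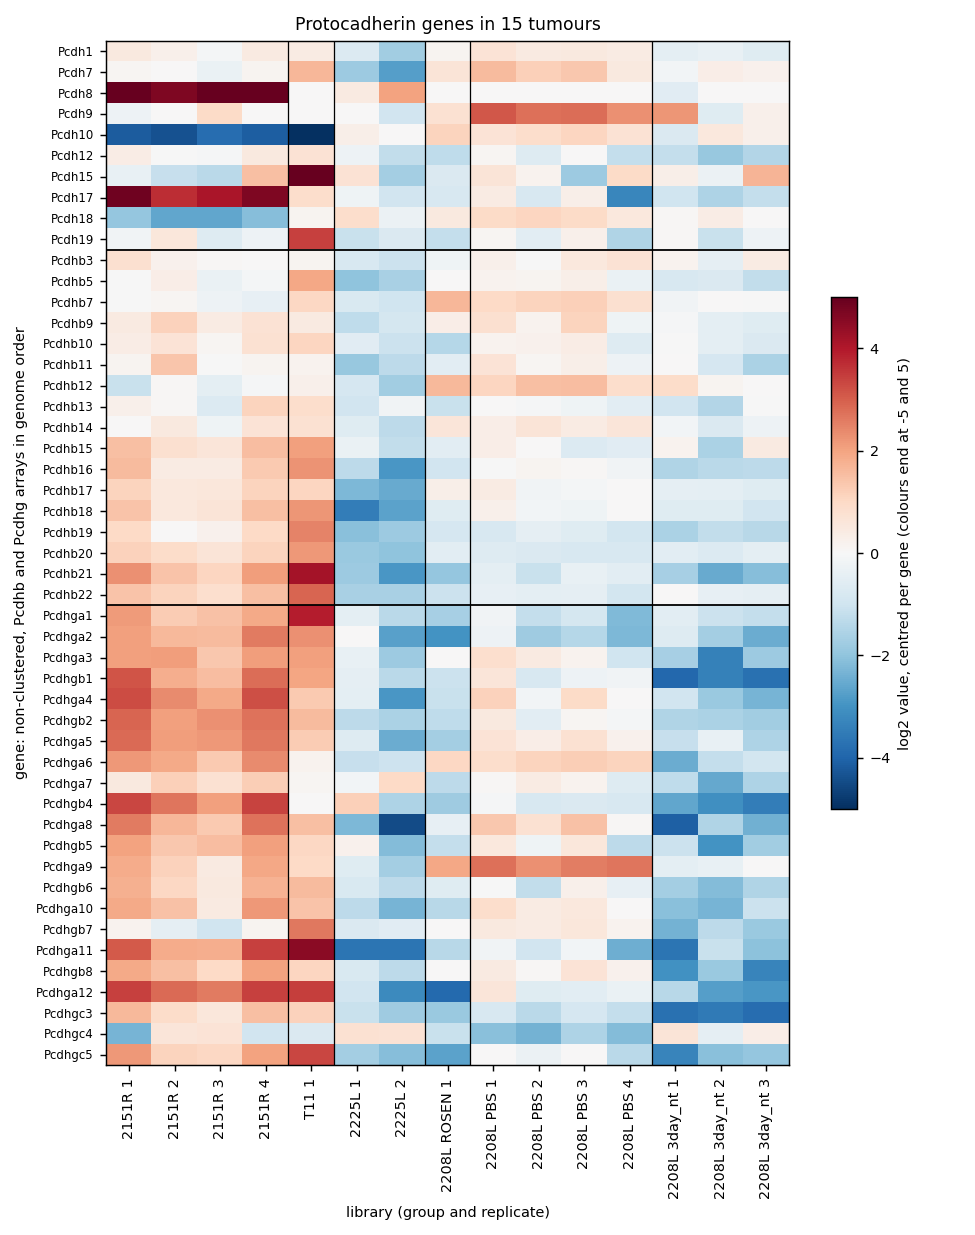
Value of each protocadherin gene (rows: non-clustered, then the Pcdhb and Pcdhg arrays in genome order) in each of the 15 samples (columns, by group and replicate), as log2 values centred per gene with colours ending at -5 and 5. The Pcdhg block is red in 2151R and T11 and blue in 2208L 3day_nt, and Pcdh8 and Pcdh17 are the darkest red rows of 2151R.

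Most of the clustered genes stood higher in 2151R than they did in 2208L. In the Pcdhg array 19 of 22 genes rose and 0 fell, by limma with Benjamini-Hochberg adjustment at 0.05, and at an unadjusted p under 0.05 the count that fell was also 0, where 25.4% of all genes were lower and 29.8% higher. In the Pcdhb array 9 of 17 rose and 2 fell. Over all genes tested 26.1% were called higher and 22.7% lower. The median difference was 2.74 log2 units over the Pcdhg genes and 0.80 over the Pcdhb genes, beside 0.10 over all genes. Groups did not overlap, with 2151R above, at 17 Pcdhg and 8 Pcdhb genes, against 20.6% of all genes.

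Pcdhga12, a member of the A subgroup of the gamma array, showed the largest difference of the clustered genes. Its values were 3.43, 2.83, 2.60 and 3.43 in 2151R replicates 1 to 4, while 2208L ran from -3.90 over a median of -1.01 to 0.59. All 4 samples of 2151R lay above all 8 of 2208L, and the difference was 4.55 (SE 0.76, limma adjusted p 0.000253), or 23.4-fold. Pcdhgb4, of the B subgroup, read 3.33, 2.69, 2.04 and 3.39 in 2151R and -3.44 to -0.05 in 2208L, with a median of -1.30. It differed by 4.52 (SE 0.68, limma adjusted p 0.000106), with no overlap. Pcdhga11 read 3.08, 1.85, 1.82 and 3.40 in 2151R and -3.65 to -0.13 in 2208L, with a median of -1.25, and differed by 4.02 (SE 0.59, limma adjusted p 8.7e-05). In each of these genes replicates 1 and 4 were the higher samples of 2151R and replicates 2 and 3 the lower. The same order appears in the median over the Pcdhg genes, which was 2.09 and 2.14 in replicates 1 and 4 and 1.56 and 1.32 in replicates 2 and 3. It was not particular to them, as the median over all genes was 0.09 and 0.00 against -0.04 and -0.02. The Pcdhg genes that were not called were Pcdhga9 (difference -0.06, SE 0.70), Pcdhgb7 (0.20, SE 0.56) and Pcdhgc4 (0.60, SE 0.67).

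In this contrast the difference followed position in the Pcdhb array. From Pcdhb15 to Pcdhb22, at the end that faces the Pcdhg array, all 8 genes rose, with a median difference of 1.55 and a range of 0.97 to 3.06. From Pcdhb3 to Pcdhb14 1 of 9 genes rose (Pcdhb10, 0.80) and 2 fell (Pcdhb12, -1.36, and Pcdhb7, -0.83), with a median of 0.29. This split was made after the values were seen. Over the 17 Pcdhb genes, Spearman's rho of genome order against the difference was 0.83, and over the 22 Pcdhg genes it was -0.16. For the Pcdhb genes rho was 0.13 in 2225L against 2208L, -0.72 in 2225L against 2151R and -0.21 in PBS against 3day_nt. These are descriptions across genes of the same libraries, and genes are not independent replicates.

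Pcdhb21 had the largest difference in the Pcdhb array. It read 2.27, 1.44, 1.07 and 2.10 in 2151R and ran from -2.51 over a median of -1.40 to -0.37 in 2208L, without overlap. The difference was 3.06 (SE 0.44, limma adjusted p 6.5e-05), or 8.36-fold, and part of its sequence overlaps Pcdhb22. Pcdhb22 differed by 1.74 (SE 0.19, limma adjusted p 6.57e-06), from 1.42, 1.11, 0.84 and 1.49 in 2151R against -1.06 to 0.00 in 2208L. Pcdhb20, which shares no exonic base with another member, read 1.17, 0.90, 0.65 and 1.12 in 2151R and stayed within -0.79 to -0.49 in 2208L. Its difference was 1.60 (SE 0.13, limma adjusted p 2.6e-07). Of the 30 clustered genes called, 26 kept their call when each library was left out in turn. The 4 exceptions, Pcdhb7, Pcdhb10, Pcdhga6 and Pcdhga8, each lost it without 5 to 9 different single libraries, and their adjusted p was highest without 2151R replicate 4 (0.124, 0.129, 0.0891 and 0.0852).

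The clustered genes differed within 2208L, so the size of the difference depended on which samples of 2208L were used. Against the PBS samples alone, 17 Pcdhg genes were higher and 1 lower and 8 Pcdhb genes higher and 2 lower, with 27.5% of all genes higher and 22.9% lower. Against the 3day_nt samples alone, 21 Pcdhg genes and 12 Pcdhb genes were higher, with 27.7% of all genes higher and 27.1% lower. The median Pcdhg difference was 1.89 against PBS and 3.85 against 3day_nt. Both contrasts use the same 4 samples of 2151R.

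**Figure D2:**
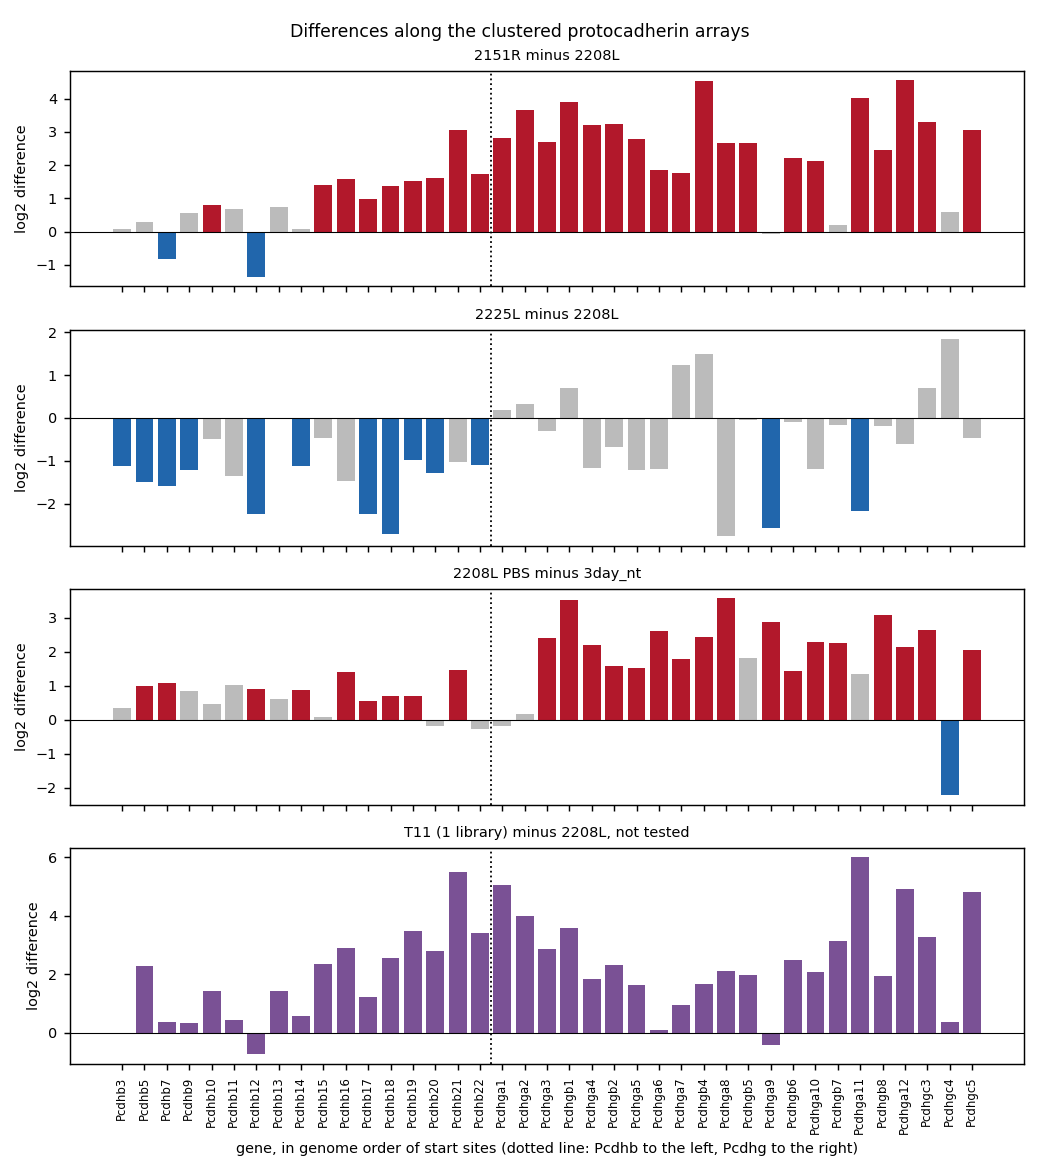
Log2 difference (vertical axis) at each clustered gene in genome order (horizontal axis; the dotted line separates Pcdhb on the left from Pcdhg on the right). Red bars were called higher and blue bars lower by limma with Benjamini-Hochberg adjustment, grey bars were not called, and purple bars (T11, 1 sample) were not tested. In 2151R minus 2208L all 8 bars from Pcdhb15 to Pcdhb22 are red.

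The non-clustered genes did not share a direction in 2151R. Of 10 genes, 3 rose (Pcdh17, Pcdh8 and Pcdh12) and 2 fell (Pcdh10 and Pcdh18), close to the shares of all genes, and the median difference was -0.14. Of the 49 protocadherins, Pcdh17, Pcdh8 and Pcdh10 nevertheless differed most between these models.

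Promoter windows of these 4 genes are shown because they are the non-clustered genes with the largest differences in each direction. Each is the 250 bases before the start, 5′ to 3′, from RefSeq on GRCm38.p6, where 8 of the 49 protocadherins had an entry. Pcdh8 and Pcdh17 were higher in 2151R, and Pcdh10 and Pcdh18 lower. Their windows are chr14:79771313-79771562 on the minus strand (Pcdh8), chr14:84443313-84443562 on the plus strand (Pcdh17), chr3:45378148-45378397 on the plus strand (Pcdh10) and chr3:49757317-49757566 on the minus strand (Pcdh18). Capitals mark ATTGG, which is CCAAT read on the other strand.
Pcdh8: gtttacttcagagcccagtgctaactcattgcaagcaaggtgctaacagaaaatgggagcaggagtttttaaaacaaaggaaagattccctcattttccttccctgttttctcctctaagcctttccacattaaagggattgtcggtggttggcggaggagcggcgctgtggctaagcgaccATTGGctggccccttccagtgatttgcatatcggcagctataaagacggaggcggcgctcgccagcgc
Pcdh17: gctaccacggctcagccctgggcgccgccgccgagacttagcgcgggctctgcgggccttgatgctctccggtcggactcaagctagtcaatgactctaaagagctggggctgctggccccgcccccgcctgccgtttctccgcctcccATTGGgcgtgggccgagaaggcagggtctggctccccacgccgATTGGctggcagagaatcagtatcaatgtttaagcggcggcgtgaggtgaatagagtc
Pcdh10: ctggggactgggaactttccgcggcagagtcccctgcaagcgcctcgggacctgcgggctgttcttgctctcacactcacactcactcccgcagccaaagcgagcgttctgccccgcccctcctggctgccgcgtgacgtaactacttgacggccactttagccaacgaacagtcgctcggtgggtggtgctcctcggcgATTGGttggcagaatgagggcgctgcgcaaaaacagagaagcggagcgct
Pcdh18: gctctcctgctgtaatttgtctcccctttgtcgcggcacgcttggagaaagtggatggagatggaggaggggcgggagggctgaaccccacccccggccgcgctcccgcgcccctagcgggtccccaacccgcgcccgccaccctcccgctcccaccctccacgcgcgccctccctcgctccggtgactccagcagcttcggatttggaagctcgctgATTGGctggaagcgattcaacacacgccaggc

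CG dinucleotides, the bases where promoter methylation falls, numbered 22 in Pcdh10, 23 in Pcdh18, 21 in Pcdh17 and 11 in Pcdh8, against a median of 6 over 32851 promoter windows of the same length. CCAAT was searched on both strands and occurred in all 4 windows, 2 times in Pcdh17 and 1 time in each of the others, and in 33.8% of all windows. ATTGGCTG, which contains ATTGG, occurred in Pcdh8, Pcdh17 and Pcdh18 and in 3.5% of all windows, and was not found in Pcdh10. Both motifs were picked after the sequences were seen. ATTGG was thus in windows of genes that rose and of genes that fell. Of the other motifs searched on both strands, CACCTG (17.2% of all windows) was in none of the 4, GGGCGG (32.7%) was in Pcdh10, Pcdh17 and Pcdh18, and TATAAA (12.4%) was in Pcdh8. These matches describe the windows, and methylation and factor binding were not measured.

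Pcdh17, a delta-class protocadherin that acts in axon growth and synapses, read 4.85, 3.70, 4.10 and 4.68 in 2151R. In 2208L it ran from -3.27 over a median of -0.90 to 0.41, below every sample of 2151R, and its lowest value was that of PBS replicate 4. The difference was 5.31 (SE 0.55, limma adjusted p 3.85e-06), or 39.8-fold. T11 read 0.87 and 2225L read -0.23 and -0.97. Among the 4 models Pcdh17 was highest in every 2151R sample.

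Pcdh8, whose product controls cell adhesion in early mesoderm and at synapses, read 5.24, 4.67, 5.06 and 5.37 in 2151R. In 2208L 7 samples held exactly 0.00 and 3day_nt replicate 1 read -0.58. All samples of 2151R were above these values. The difference of 5.16 (SE 0.25, limma adjusted p 1.69e-09) rests on a repeated value in 2208L, so no fold is given.

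Pcdh10, a delta-class protocadherin that recruits the WAVE complex to cell contacts, read -4.17, -4.35, -3.82 and -4.11 in 2151R. In 2208L it ran from -0.73 over a median of 0.72 to 1.12, above every sample of 2151R. The difference was -4.69 (SE 0.29, limma adjusted p 2.35e-08), so that Pcdh10 was 25.7-fold lower. T11 was lower still at -5.01, and 2225L read 0.28 and 0.00. Pcdh10 was thus low in 2151R and T11 and higher in every sample of the other models.

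Pcdh18, another delta-class protocadherin, read -1.94, -2.58, -2.60 and -2.13 in 2151R and 0.00 to 1.06 in 2208L. The groups did not overlap, and the difference was -2.86 (SE 0.26, limma adjusted p 1.18e-06), or 7.26-fold lower. T11 read 0.12, near the 2208L samples.

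Pcdh12, a protocadherin of endothelial cells, read 0.38, -0.03, -0.07 and 0.50 in 2151R and -1.89 to 0.08 in 2208L. The groups overlapped, and the difference was 1.14 (SE 0.36, limma adjusted p 0.0178). It was not called without 2151R replicate 1 (adjusted p 0.053) or replicate 4 (adjusted p 0.0583), and against PBS alone it was 0.62. Of 8 endothelial markers 6 were also higher in 2151R, with summed values of 1.24 to 6.94 in 2151R and -9.23 to 0.46 in 2208L, and their part in the Pcdh12 and Pcdh17 differences was not tested. The other 5 non-clustered genes were not called. Their differences were 0.19 at Pcdh1 (SE 0.29), -0.71 at Pcdh7 (SE 0.32), -1.53 at Pcdh9 (SE 0.65), -0.47 at Pcdh15 (SE 0.69) and 0.39 at Pcdh19 (SE 0.35).

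**Figure D3:**
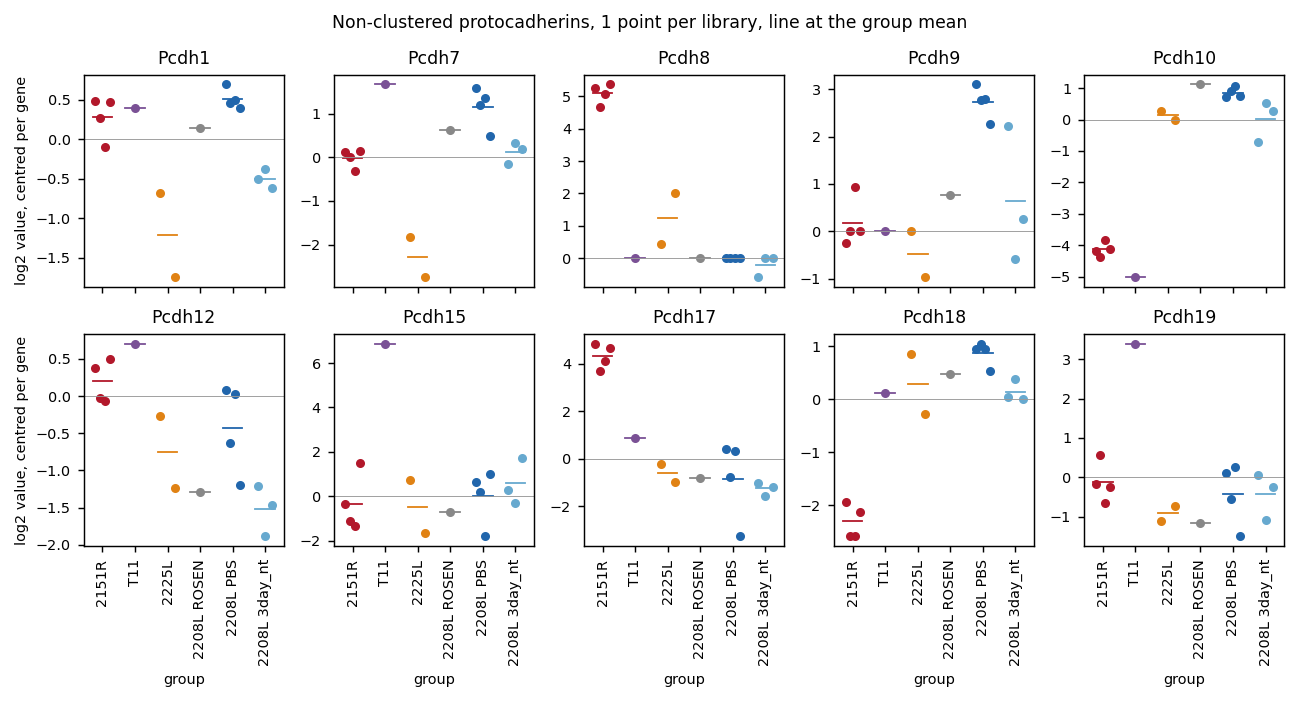
Value of each of the 10 non-clustered protocadherins (log2, centred per gene, vertical axis of each panel) by group (horizontal axis), with 1 point per sample and a line at the group mean. Pcdh8 and Pcdh17 stand high in the 4 samples of 2151R, Pcdh10 stands low in 2151R and T11, and Pcdh15 and Pcdh19 stand high in the T11 sample.

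The 2151R tumours also differed from 2208L in some cell markers, in a contrast where 48.8% of all genes were called. All 8 epithelial markers (such as Epcam and Cdh1) were lower, with summed values of -48.11 to -39.04 in 2151R and 5.19 to 10.43 in 2208L. Of the 8 markers each of other cell types, 6 were higher for macrophages (4.65 to 7.37 in 2151R, -6.86 to 2.09 in 2208L), 3 for fibroblasts and 2 for T cells, while 2 were lower for pericytes. Of 7 measured glial markers 1 was higher and 3 were lower. Of the neuron markers, 4 were in the table and 3 were higher in 2151R, with sums of 3.56 to 7.28 against -13.22 to -0.12. Their part in the protocadherin differences was not tested.

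The Pcdhb genes tended downwards in 2225L, set against 2208L. Of 17 Pcdhb genes 11 fell and 0 rose, by limma with Benjamini-Hochberg adjustment, while 17.3% of all genes were called lower and 15.6% higher. At an unadjusted p under 0.05, 13 Pcdhb genes were lower and 0 higher, with 22.4% and 20.5% of all genes. All 17 differences were below 0, with a median of -1.21, beside -0.04 over all genes. The groups did not overlap, with 2225L below, at 10 Pcdhb genes, against 16% of all genes (31.7% apart in either direction). Of the 22 Pcdhg genes 2 fell (Pcdhga9, -2.56, and Pcdhga11, -2.18), and neither call held without either sample of 2225L (adjusted p 0.0779 and 0.267 for Pcdhga9 without replicates 1 and 2, and 0.143 and 0.16 for Pcdhga11). This contrast and that of 2151R use the same 8 samples of 2208L.

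Pcdhb18 showed the largest Pcdhb difference. It read -3.45 and -2.67 in 2225L and -0.97 to 0.24 in 2208L. This difference, -2.71 (SE 0.34, limma adjusted p 6.68e-05), was 6.52-fold downwards. Pcdhb17 read -2.24 and -2.51 in 2225L and -0.59 to 0.43 in 2208L, and differed by -2.24 (SE 0.28, limma adjusted p 5.51e-05). Pcdhb12 read -0.82 and -1.74 in 2225L and 0.00 to 1.61 in 2208L, with the same difference of -2.24 and a wider SE of 0.45 (limma adjusted p 0.00198). In these 3 genes both samples of 2225L lay below all 8 of 2208L. Pcdhga8 had the largest Pcdhg difference, -2.75 (SE 1.21), and was not called (limma adjusted p 0.0997), with values of -2.23 and -4.46 in 2225L and -4.07 to 1.45 in 2208L.

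The count of clustered genes called lower depended on the samples. It was 13 with all samples. It fell without either sample of 2225L, in fits that assume the lone sample varies like the other groups. The median over the Pcdhb genes was -1.29 in 2225L replicate 1 and -1.62 in replicate 2, the ROSEN library. In 2208L it ran from -0.67 to 0.24. Against the PBS samples alone 15 Pcdhb genes and 12 Pcdhg genes were lower and 1 Pcdhg gene was higher, with 24.9% of all genes lower and 23.1% higher. Of the 11 Pcdhb calls, 5 held without each library in turn. With library prefix (CP or ROSEN) as a covariate, 11 clustered genes were called, all lower, with 16.8% of all genes lower and 14.9% higher.

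Of the non-clustered genes 2 fell and 1 rose in 2225L. Pcdh7, a delta-class protocadherin, read -1.82 and -2.75 in 2225L and -0.15 to 1.58 in 2208L, without overlap. It differed by -2.98 (SE 0.41, limma adjusted p 0.000127), or 7.92-fold lower. Pcdh1, found at epithelial cell contacts, read -0.69 and -1.75 in 2225L and -0.62 to 0.69 in 2208L. Its difference was -1.30 (SE 0.37, limma adjusted p 0.0164), and without 2225L replicate 2 it was -0.77 (adjusted p 0.253). Pcdh8 read 0.44 and 2.03 in 2225L, above 2208L, with a difference of 1.31 (SE 0.32, limma adjusted p 0.00671) that rests on the repeated value of 2208L. Without 2225L replicate 2 the Pcdh8 difference was 0.51 (adjusted p 0.192). Pcdh9 differed by -2.19 (SE 0.84, limma adjusted p 0.062) and was not called, and the differences at the other 6 genes ran from -0.60 at Pcdh15 to 0.38 at Pcdh17. Of 8 macrophage markers 4 were lower in 2225L, with sums of -15.95 and -5.58. Of the other lists, 2 of 7 glial, 1 of 4 neuron and 1 of 8 T cell markers were higher and 1 of 8 pericyte markers was lower. Their part was not tested. None of the 8 epithelial markers was called here, where 32.9% of all genes were called.

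Most of the clustered genes were lower in 2225L than in 2151R. Of 17 Pcdhb genes 14 were lower in 2225L, of 22 Pcdhg genes 17 were lower, and 0 clustered genes were higher, by limma with Benjamini-Hochberg adjustment and also at an unadjusted p under 0.05. Over all genes 25.8% were lower and 22.8% higher, and at an unadjusted p under 0.05 29.5% and 25.7%. The median difference was -1.87 over Pcdhb and -3.04 over Pcdhg genes, beside -0.10 over all genes. Without 2225L replicate 2 fewer clustered genes were called, in a fit that leaves a lone sample of 2225L. The median over the clustered genes was -0.82 and -1.62 in the 2225L samples and 0.65 to 1.63 in 2151R. Groups did not overlap, with 2225L below, at 34 clustered genes, against 33.4% of all genes (62.4% apart in either direction).

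Pcdhga11 had the largest difference of all members in this contrast. Its 2225L samples read -3.67 and -3.66, and the 2151R samples ran from 1.82 to 3.40. In 2208L 3day_nt replicate 1 it read -3.65, and whether these near-equal values mark a lower limit was not tested. The difference was -6.20 (SE 0.84, limma adjusted p 4.96e-05). Pcdhga8 differed by -5.41 (SE 1.33, limma adjusted p 0.00456) and Pcdhga12 by -5.15 (SE 1.07, limma adjusted p 0.00154). Without 2225L replicate 2 the Pcdhga8 difference was -4.30 (adjusted p 0.0674). In the Pcdhb array Pcdhb18 and Pcdhb21 each differed by -4.09 (limma adjusted p 1.62e-06 and 0.000128), and Pcdhb17 by -3.21 (limma adjusted p 2.07e-06). All of these genes separated the 2 samples of 2225L from the 4 of 2151R.

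Of the non-clustered genes 4 were lower in 2225L than in 2151R and 2 higher. Pcdh17 differed by -4.93 (SE 0.78), Pcdh8 by -3.85 (SE 0.35), Pcdh7 by -2.27 (SE 0.45) and Pcdh1 by -1.50 (SE 0.41), with limma adjusted p of 0.000196, 1.41e-06, 0.00102 and 0.00843. Pcdh10 was higher by 4.25 (SE 0.41, limma adjusted p 2.55e-06) and Pcdh18 by 2.60 (SE 0.37, limma adjusted p 8.21e-05). Pcdh1 was not called without 2225L replicate 2 (difference -0.97, adjusted p 0.141). Epithelial markers differed in the same contrast, with all 8 higher in 2225L (sums 6.97 and 7.01), and 7 of 8 macrophage markers were lower. Of 4 neuron markers 3 were lower, with sums of -5.16 and -4.65 in 2225L and 3.56 to 7.28 in 2151R. Of 8 fibroblast markers 3 were lower, with sums of -4.70 and -3.53 in 2225L and 4.84 to 13.56 in 2151R. Of 7 glial markers 3 were higher and 1 lower, with sums of 3.04 and 11.54 in 2225L and -13.51 to -4.61 in 2151R. The sums of these 3 lists did not overlap between the models. Of 8 markers each, 1 endothelial marker was lower, 1 pericyte marker higher, and T cells had 1 of each. Over all genes 48.6% were called in this contrast. The part of all these markers was not tested.

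**Figure D4:**
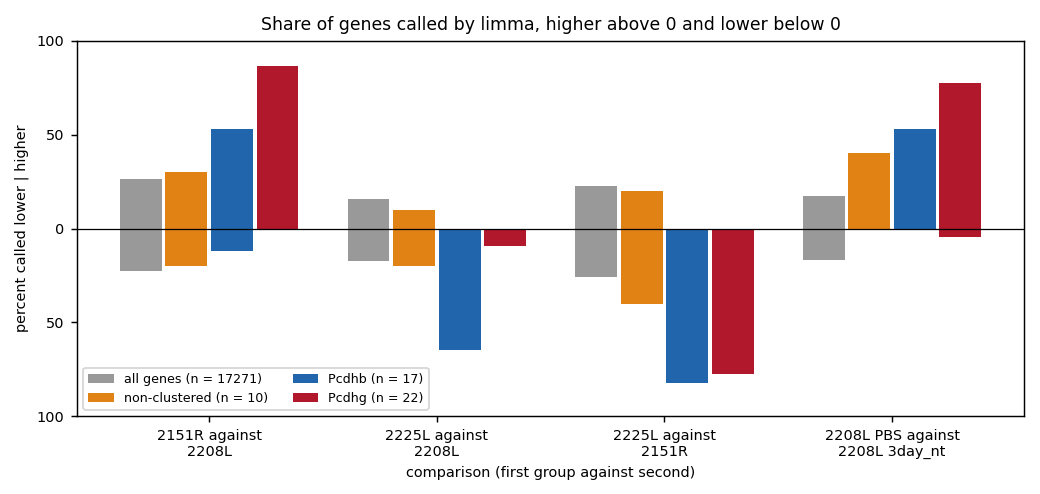
Percent of genes called higher (above 0) and lower (below 0) by limma in the 4 tested comparisons, for all 17271 genes, the 10 non-clustered, the 17 Pcdhb and the 22 Pcdhg genes. The Pcdhg bars reach 86.4% called in 2151R against 2208L and 9.09% in 2225L against 2208L, while the bars of all genes reach 48.8% and 32.9% with both directions together.

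T11 had 1 sample, so its differences carry no test and no error, and a difference of 2 log2 units is used to describe them. Against the mean of 2208L, 21 of 39 clustered genes were higher by this measure (13 Pcdhg and 8 Pcdhb genes) and 0 lower, while 8.88% of all genes were higher and 8.01% lower. Pcdhga11 read 4.52 in T11 beside a 2208L mean of -1.48, the widest gap of the clustered genes. Pcdhb21 read 4.15, 5.50 above its 2208L mean of -1.34, and Pcdhga1 read 3.94, 5.05 above. In the Pcdhb array 7 of the 8 genes from Pcdhb15 to Pcdhb22 passed 2 log2 units and 1 of the 9 from Pcdhb3 to Pcdhb14 (Pcdhb5, 2.26). Spearman's rho of genome order against the difference was 0.79 over the 17 Pcdhb genes. The contrast shares the 2208L samples with the 2151R contrast.

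Among the non-clustered genes Pcdh15, known for its part in the tip links of hair cells, stood out in T11. It read 6.88 in T11 and between -1.82 and 1.72 in the other 14 samples. Pcdh19, which guides adhesion with N-cadherin in the nervous system, read 3.40 in T11 and at most 0.56 elsewhere. Pcdh10 was 5.58 below the 2208L mean. In T11 all 8 epithelial markers summed to -76.56 and the 4 neuron markers to 12.47, and their part was not tested.

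Against the mean of 2151R, the share of clustered genes that differed in T11 by 2 log2 units was near that of all genes. Smaller differences were mostly upwards in the Pcdhb array. In T11 14 of 17 Pcdhb genes were above the 2151R mean (median difference 0.96), and 8 of 22 Pcdhg genes were (median -0.28). T11 lay above every 2151R sample at 12 Pcdhb genes, against 6884 of all 17271 genes. At the Pcdhg genes it lay above at 5 and below at 7. Of 39 clustered genes 3 were higher by 2 log2 units (Pcdhgb7 by 2.93, Pcdhb21 by 2.43 and Pcdhga1 by 2.25) and Pcdhgb4 was lower, at -2.86. Of all genes 5.31% were higher and 4.19% lower. The non-clustered genes split further. Pcdh15 was 7.22, Pcdh19 3.53 and Pcdh18 2.44 higher in T11, and Pcdh17 was lower at -3.46. Pcdh8 read exactly 0.00 in T11, a repeated value, against 4.67 to 5.37 in 2151R. Against the 2225L mean, 27 clustered genes were higher by 2 log2 units, with 14.8% of all genes, and Pcdhga11 differed by 8.18.

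Within 2208L, the clustered genes were higher in PBS than in 3day_nt samples. Of 22 Pcdhg genes 17 rose and 1 fell, and of 17 Pcdhb genes 9 rose and 0 fell, by limma with Benjamini-Hochberg adjustment on these 7 samples. At an unadjusted p under 0.05 the Pcdhb counts were 11 and 0, with 23% of all genes higher and 24.1% lower. Of all genes 17.4% were called higher in PBS and 16.5% lower, 34% in all. The median difference was 2.17 over the Pcdhg genes and 0.71 over the Pcdhb genes, beside -0.05 over all genes. Groups did not overlap, with PBS above, at 17 Pcdhg and 8 Pcdhb genes, against 21% of all genes.

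Pcdhga8 differed most. It read 1.36, 0.77, 1.45 and 0.07 in PBS and -4.07, -1.49 and -2.42 in 3day_nt, a difference of 3.57 (SE 0.64, limma adjusted p 0.00905), or 11.9-fold. Pcdhgb1 read 0.60, -0.81, -0.26 and -0.17 in PBS and -3.92, -3.37 and -3.74 in 3day_nt, and differed by 3.52 (SE 0.33, limma adjusted p 0.00232). Pcdhgb8 differed by 3.08 (SE 0.36, limma adjusted p 0.00378). In these 3 genes all PBS samples lay above all 3day_nt samples. In the Pcdhb array Pcdhb21 read -0.50, -1.13, -0.37 and -0.51 in PBS and -1.67, -2.51 and -2.13 in 3day_nt, a difference of 1.48 (SE 0.26, limma adjusted p 0.00875). Pcdhb16 differed by 1.40 (SE 0.12, limma adjusted p 0.00189) and Pcdhb7 by 1.09 (SE 0.13, limma adjusted p 0.00397), again without overlap.

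Pcdhgc4, of the C subgroup at the end of the gamma array, went the other way. It read -2.08, -2.36, -1.53 and -2.16 in PBS and 0.65, -0.45 and 0.32 in 3day_nt. All PBS samples lay below all 3day_nt samples, as at 23.8% of all genes, and the difference was -2.20 (SE 0.31, limma adjusted p 0.00517), or 4.60-fold lower. The other C genes rose, Pcdhgc3 by 2.63 (SE 0.17) and Pcdhgc5 by 2.04 (SE 0.46), with limma adjusted p of 0.000906 and 0.0175. Pcdhgc4 was singled out after its values were seen.

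Of the 10 non-clustered genes 4 rose and 0 fell in PBS, with 17.4% of all genes higher and 16.5% lower (34% called). At an unadjusted p under 0.05 by limma 6 were higher and 0 lower, with 23% and 24.1% of all genes. Pcdh1 read 0.69, 0.46, 0.49 and 0.40 in PBS and -0.51, -0.38 and -0.62 in 3day_nt, and differed by 1.01 (SE 0.12, limma adjusted p 0.00388). Pcdh9, a delta-class protocadherin, read 3.11, 2.77, 2.80 and 2.27 in PBS and 2.23, -0.59 and 0.26 in 3day_nt. Its highest 3day_nt sample, replicate 1, lay just below the lowest PBS sample, and the difference was 2.11 (SE 0.63, limma adjusted p 0.0424). Pcdh7 differed by 1.03 (SE 0.28, limma adjusted p 0.0305) and Pcdh18 by 0.73 (SE 0.17, limma adjusted p 0.0205). Of the 4, the Pcdh1 call held without each library in turn. The adjusted p of the others then ran up to 0.0853 for Pcdh18 and 0.134 for Pcdh9 (both without 3day_nt replicate 3) and 0.104 for Pcdh7 (without 3day_nt replicate 1). Without PBS replicates 1, 2 or 3 or 3day_nt replicates 1 or 3, the non-clustered count was 1, 1, 2, 2 and 1. The share of all genes called was then 22.5%, 22.3%, 27.9%, 17.1% and 13.8%. Pcdh10 (0.83, limma adjusted p 0.0709) and Pcdh12 (1.09, limma adjusted p 0.0505) were not called, and Pcdh8, Pcdh15, Pcdh17 and Pcdh19 differed by 0.19, -0.57, 0.41 and 0.01.

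Some markers of several cell types were called in this contrast, where 34% of all genes were called. Of 4 neuron markers 2 were lower in PBS, with summed values of -13.22 to -8.93 in PBS and -6.52 to -0.12 in 3day_nt. Of 8 epithelial markers 2 were lower, with sums of 5.19 to 5.94 in PBS and 6.01 to 8.24 in 3day_nt. The neuron and epithelial sums did not overlap. Of 8 pericyte markers 3 were higher, with sums of -0.39 to 6.41 in PBS and -7.39 to 3.66 in 3day_nt. T cells had 2 of 8 markers lower (sums -17.50 to 1.03 in PBS, 0.12 to 6.63 in 3day_nt) and macrophages 2 of 8 (-6.86 to -1.08 in PBS, -1.23 to 2.09 in 3day_nt). The pericyte, T cell and macrophage sums overlapped. Of 7 glial markers 2 were higher and 1 lower, and of 8 each 1 fibroblast marker was lower and 1 endothelial marker higher. The part of these markers was not tested.

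Of 8 skeletal muscle markers 1 was called, lower in PBS, and their summed values overlapped, with -23.12 to 26.82 in PBS and 15.69 to 85.21 in 3day_nt. With the summed markers as a covariate, 3 clustered and 0 non-clustered genes were called by limma (0.718% of all genes), and at an unadjusted p under 0.05 the counts were 29 and 4 (21.7% of all genes). Without 3day_nt replicates 1 and 3, which leaves replicate 2 alone and assumes that it varies like the PBS samples, 2 clustered and 1 non-clustered gene were called (0.567% of all genes). The median Pcdhg difference was 2.35 with the covariate and 2.31 without those samples, beside 2.17 in the main fit. For the Pcdhb genes the medians were 0.98 and 0.97, beside 0.71. Single genes moved both ways. Without those samples Pcdhga8, Pcdhgb1 and Pcdhgb8 differed by 2.40, 3.20 and 2.19, less than in the main fit, and Pcdhb21 by 1.88, more than in it. For 2151R against 2208L, leaving out the 3 samples high in muscle markers together gave 29 clustered genes called, 28 of them among the 30, and 4 non-clustered genes, with 42.7% of all genes called.

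The clustered genes varied together over the 15 samples. The median Pearson r between pairs was 0.80 over 231 pairs of Pcdhg genes, 0.67 over 136 pairs of Pcdhb genes and 0.63 between the arrays. Between non-clustered genes it was 0.12 over 45 pairs, and over all genes 0.03. Between non-clustered and Pcdhb genes the median was 0.437, and between non-clustered and Pcdhg genes 0.325. These values describe 15 samples of 4 models, and Pcdhg pairs share constant exons. Pcdhgc4 had a median r of -0.28 with the other Pcdhg genes, the lowest in its array, while Pcdhga9 (0.46) and Pcdhgb7 (0.54) were the next lowest. In the Pcdhb array Pcdhb12 (0.18) and Pcdhb7 (0.38) were lowest. Median values over the Pcdhg genes were 1.32 to 2.14 in 2151R, 1.47 in T11, -0.37 to 0.49 in PBS, -1.23 in the ROSEN sample of 2208L, -1.74 and -0.69 in 2225L and -1.85 to -1.69 in 3day_nt. By this measure 2151R and T11 overlapped, and 2225L overlapped with no PBS sample.

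Genes beside the arrays on chromosome 18 were called no more often than all genes in any of the 4 tested comparisons. Pcdh1 and Pcdh12, also on this chromosome, are counted with the non-clustered genes and not here. Of 14 array neighbours 13 were in the table, and in 2151R 1 was higher and 3 were lower than in 2208L, with a median difference of -0.18, while 48.8% of all genes were called. Arap3 was higher by 1.24, and Rell2 (-1.75), Ndufa2 (-1.26) and Hdac3 (-0.57) were lower, while Diaph1, Dnd1, Fchsd1, Hars, Hars2, Ik, Taf7, Wdr55 and Zmat2 were not called (-0.54 at Dnd1 to 0.30 at Zmat2). In 2225L against 2208L, with 32.9% of all genes called, Taf7 was higher (0.62) and Rell2 (-1.67), Fchsd1 (-1.25) and Diaph1 (-0.54) were lower. In 2225L against 2151R, with 48.6% of all genes called, Taf7 was higher (0.80) and Arap3 lower (-1.24). In PBS against 3day_nt 0 were higher and Ndufa2 (-1.35), Dnd1 (-0.98) and Zmat2 (-0.90) lower, by limma, with 34% of all genes called. No test set the neighbours against the arrays.

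Of 19 genes for CTCF, cohesin and chromatin regulators known to act on clustered arrays, 6 were higher in 2151R and 2 were lower by limma, set against 2208L, with a median difference of 0.28, while 26.1% of all genes were higher and 22.7% lower. Nipbl, which loads cohesin, was higher by 1.50 (SE 0.34) and Rad21, a cohesin subunit, by 0.92 (SE 0.18). The DNA methyltransferase gene Dnmt3a was lower, at -1.64 (SE 0.21), as was Trim28, at -0.63 (SE 0.17). In 2225L against 2208L 5 were higher and 2 lower (15.6% and 17.3% of all genes), with Dnmt3b at 2.92 (SE 0.21) and Trim28 at 0.97, and Dnmt3a at -4.88 (SE 0.28, limma adjusted p 6.88e-08) and Setdb1 at -0.61. In 2225L against 2151R 2 were higher (Dnmt3b 3.26, Trim28 1.60) and 7 lower, led by Dnmt3a (-3.25) and Nipbl (-1.59), with 22.8% and 25.8% of all genes. In PBS against 3day_nt 8 were higher and 0 lower (17.4% and 16.5% of all genes), led by Nipbl (1.21) and Stag2 (0.68), a cohesin subunit. In the 3 comparisons between models, 8, 7 and 9 of the 19 were called, near or below the shares of all genes (48.8%, 32.9% and 48.6%).

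Of 17 measured genes for protocadherin partners and signalling (WAVE complex, kinases and proteases that cut protocadherins), 9 rose in 2151R and 0 fell, set against 2208L, by limma, with 26.1% of all genes higher and 22.7% lower. Fyn, a kinase, was higher by 1.70 (SE 0.22) and Nckap1l, a WAVE subunit of blood cells, by 1.23 (SE 0.19). In 2225L against 2208L 2 were higher (Fyn 2.18, Wasf1 1.61) and 4 lower, led by Nckap1l (-1.52) and Cyfip2 (-1.44), with 15.6% and 17.3% of all genes. In 2225L against 2151R 2 were higher (Brk1 0.90, Wasf1 0.65) and 6 lower, led by Nckap1l (-2.75) and Cyfip2 (-2.08), with 22.8% and 25.8% of all genes. In PBS against 3day_nt 6 were higher, led by Wasf2 (0.68) and Adam10 (0.60), and Brk1 was lower (-0.57), with 17.4% and 16.5% of all genes.

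Of 8 measured large cadherins of planar polarity and tissue growth, 6, 3, 4 and 5 were called in the 4 tested comparisons taken in the same order, with 48.8%, 32.9%, 48.6% and 34% of all genes. In 2151R against 2208L Fat2 (3.34), Fat4 (1.21) and Dchs1 (1.08) were higher and Celsr1 (-5.81), Celsr2 (-4.38) and Fat1 (-1.67) lower, by limma, while Celsr3 (-0.25) and Dchs2 (0.40) were not called. In 2225L against 2208L Fat2 (6.64) and Celsr1 (1.92) were higher and Celsr3 (-1.44) lower. In 2225L against 2151R Celsr1 (7.73), Celsr2 (4.68), Fat2 (3.30) and Fat1 (1.55) were higher. In PBS against 3day_nt Dchs2 (3.35), Dchs1 (1.07), Celsr2 (0.80) and Fat1 (0.66) were higher and Fat2 (-2.13) lower.

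Of 23 classical and other cadherins 13 were measured. In 2151R 4 were higher, led by Cdh13 (2.70) and Cdh5 (1.52), the endothelial cadherin, and 4 lower, led by Cdh1 (-5.84), the epithelial cadherin, and Cdh3 (-4.16), with 26.1% and 22.7% of all genes. In 2225L against 2208L 2 were higher (Cdh3 2.27, Cdh24 1.09) and 6 lower, led by Cdh19 (-4.86) and Cdh2 (-3.79), with 15.6% and 17.3% of all genes. In 2225L against 2151R 3 were higher, led by Cdh3 (6.43) and Cdh1 (5.87), and 4 lower, led by Cdh2 (-4.88) and Cdh13 (-2.78), with 22.8% and 25.8% of all genes. In PBS against 3day_nt 3 were higher, led by Cdh23 (2.81) and Cdh19 (2.23), and Cdh24 was lower (-0.48), with 17.4% and 16.5% of all genes.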

How the data were processed

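Libraries of poly(A) RNA from 15 mouse mammary tumours were prepared with TruSeq reagents, per the labels' protocols. The submitters' processing notes name STAR, Salmon and mm10, without roles or versions, and the normalization between samples is not given in the sources used here. The deposited table of the authors holds log2 values of 17271 genes. Its name is the source for both the log2 scale and the median centring. Which samples the median was taken over is not stated. Pcdhga12 held no value of 0, so 0 was not the median of these 15 samples at every gene. Of all genes 7502 held exactly 1 value of 0, and 727 (4.21%) held a value shared by samples. All 17271 genes were tested as deposited, with no filter on low values.

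Samples were grouped by title. Differences were fitted with limma 3.58.1 in R 4.3.3. Models were compared in a single fit with 4 means over the 15 samples, and PBS with 3day_nt in a fit of their 7 samples. A gene was called where its Benjamini-Hochberg adjusted p, over all genes, was under 0.05. T11, with 1 sample, was described by differences of 2 log2 units. The fit was tested on simulated data. Gene positions and exons came from GENCODE vM21 (mm10), promoter windows from RefSeq. Muscle, endothelial, epithelial, macrophage, fibroblast, T cell, neuron, pericyte and glial marker lists were summed per sample.

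The members and lists were chosen with earlier results of these data known. Genes named are every non-clustered protocadherin, the 3 genes of each array with the largest difference in each comparison, every array neighbour and every Fat, Dchs and Celsr gene, and the 2 called genes with the largest difference in each direction of the other lists. Others named were singled out after their values were seen. Alternatives were other centring, quantile normalization, robust variance, sample weights, a minimum difference of 1 log2 unit, leaving out genes with repeated values, each library in turn, subsets of 2208L, samples titled NT, nt or PBS only, and library prefix or muscle markers as a covariate. Leaving out the samples high in muscle markers was added after the data were seen.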

Additional observations from a re-analysis of the deposited data

Results flagged for a closer look

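In 5 of 147 gene and group sets of 4 to 8 samples, 1 sample stood apart from the others by a gap wider than Dixon's 95% limit, where chance gives about 1 in 20, or 7.35. Pcdhb11 read 1.40 in 2151R replicate 2 and at most 0.14 in the other 3 samples. Pcdhga3 read 1.34 in 2151R replicate 3 and 2.06 to 2.09 in the others. Pcdhgb4 read -0.0452 in 2208L PBS replicate 1 and -0.81 to -0.73 in the other PBS samples. In 2208L, 3day_nt replicate 1 was the lowest sample at Pcdh10, with -0.73 against 0.26 to 1.12, and at Pcdh8, with -0.58 against exactly 0.00 in the other 7. That sample also had the highest summed value of skeletal muscle markers, 85.21, and the part of those markers was not tested.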

How the results depend on the processing

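No protocadherin difference called by limma changed sign under the alternatives run. Of 2016 alternative values at called genes, 1755 kept the call and 261 lost it. For 2151R against 2208L, 30 clustered and 5 non-clustered genes were called. Leaving out each library gave 26 to 30 and 4 to 6, with 40.7% to 49.3% of all genes called. Samples titled NT, nt or PBS only gave 19 clustered genes, with 37.3% of all genes called in place of 48.8%. For 2225L against 2208L, 13 clustered genes became 7 with quantile normalization, 3 with sample weights and 28 against PBS alone. Leaving out each 2208L library gave 10 to 15, with 29.9% to 35% of all genes called. Without either 2225L sample the count was lower than 13. The 3 non-clustered calls became 1 with sample weights, and 1 to 4 when each library was left out. For 2225L against 2151R, 31 clustered genes became 17 with sample weights. Leaving out each 2151R library gave 27 to 32, with 42.9% to 45.5% of all genes called. Without either 2225L sample the count was lower than 31. For PBS against 3day_nt, 27 clustered genes became 3 with the muscle markers as a covariate and 2 without the samples high in muscle markers, and 19 to 29 when each library was left out. The 4 non-clustered calls became 7 with sample weights, 0 with the muscle covariate (4 at an unadjusted p under 0.05 by limma, as were 21.7% of all genes), 1 without the samples high in muscle markers, and 1 to 5 when each library was left out. The share of all genes called moved as well. With sample weights it was 12.5% for 2225L against 2208L, 30.4% for 2225L against 2151R and 67.7% for PBS against 3day_nt. The main fits gave 32.9%, 48.6% and 34%. For 2225L against 2208L, quantile normalization gave 28% and the PBS samples alone 48%. With the muscle covariate PBS against 3day_nt gave 0.718%, and leaving out each library gave 13.8% to 39.4%. The cause of these changes was not tested. With T11, centring each sample on its median changed the 21 clustered genes above 2208L to 19. No paired analysis was possible because no number in the labels is shared between groups. Depth is unknown, so its limit on these values cannot be computed.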
